A study of Arabidopsis thaliana with 42 samples.

Results

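A set of 10 WRKY transcription factor genes named in studies of Arabidopsis leaf senescence was followed through dark-induced senescence in the rpn12a-236 mutant and in WT. They were chosen by name, with earlier results of these data known, and all 10 were present among the 27050 genes of the RNA-seq table. They were WRKY53 (AT4G23810), WRKY6 (AT1G62300), WRKY22 (AT4G01250), WRKY45 (AT3G01970), WRKY75 (AT5G13080), WRKY70 (AT3G56400), WRKY54 (AT2G40750), WRKY57 (AT1G69310), WRKY18 (AT4G31800) and WRKY40 (AT1G80840). The rpn12a-236 plants were Col-0 plants of a single EMS-mutagenized line. In this line the codon of Q236 in the 267-residue proteasome subunit RPN12a had become a stop codon. The paper also lists non-synonymous mutations in further genes on chromosome 1 of the backcrossed plants. WRKY6, WRKY57 and WRKY40 lie on that chromosome as well. The paper restored leaf senescence with some RPN12a transgenes, but no such line is among the libraries here. Effects of RPN12a and of the other mutations therefore cannot be told apart in them. The WT plants were Col-0. Both were grown in short days, and single leaves were darkened on the otherwise illuminated plant (individually darkened leaves, IDLs). The rpn12a-236 groups were leaves in the light at 0 d and IDLs after 6 h, 1 d, 3 d and 6 d. The WT groups were the same 5, with leaves kept in the light for 6 h, 1 d, 3 d and 6 d as controls, which the mutant did not have. This gave 15 rpn12a-236 libraries and 27 WT libraries, 3 per group, each from a pool of 2 leaves of independent plants. The 6 h leaves were harvested at hour 14, and hour 8 was used for every other time point. The values are z-scores, which put every gene on a scale centred at 0 with unit SD across the 42 libraries. A difference of 1 is therefore 1 SD of that gene over the experiment. No fold change, no expression level and no sequencing depth can be read from them, and levels of 2 genes cannot be compared.

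WRKY proteins are plant transcription factors with a zinc-finger domain that binds the W-box, a DNA element with the core TTGAC, which is also found in front of many WRKY genes themselves. WRKY53, WRKY6, WRKY22, WRKY45 and WRKY75 are known to promote leaf senescence or to be induced in it, whereas WRKY70, WRKY54 and WRKY57 are known to hold it back. WRKY18 and WRKY40 are close paralogues that act in defence against pathogens, and WRKY18 has also been described as a repressor of WRKY53.

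Because these proteins bind the W-box, the 300 bases around each gene's start, 250 before and 50 after, were searched for TTGAC on both strands in the RefSeq annotation of TAIR10.1. The core occurred in 6 of the 10 windows, and in 50.5% of the 27438 windows of all genes, so that the share among the 10 was near that of any gene. The longer form TTGACC or TTGACT occurred in 3 of the 10 windows and in 32.4% of all windows, and the G-box CACGTG, a site of light-signalling factors, occurred in 1 of the 10, in WRKY45, and in 7.68% of all. WRKY45 held 3 cores and WRKY53 held 2, WRKY75, WRKY6, WRKY70 and WRKY40 held 1 each, and none was found in the windows of WRKY54, WRKY22, WRKY57 and WRKY18. The windows of 3 genes are shown, WRKY45 because its dark response differed between the genotypes at all 4 times, WRKY75 because its pattern over the groups was the most like that of WRKY45, and WRKY53 as the best known of the family in senescence. Of the other genes whose dark response differed at more than 1 time, WRKY18 and WRKY57 held no core and WRKY40 held 1. The capitals mark the core, which reads TTGAC or, on the other strand, GTCAA. All 3 genes lie on the minus strand of TAIR10.1, at chr3:327363-327662 for WRKY45, chr5:4151152-4151451 for WRKY75 and chr4:12393933-12394232 for WRKY53. A match is a run of letters and not a shown binding site.
WRKY45: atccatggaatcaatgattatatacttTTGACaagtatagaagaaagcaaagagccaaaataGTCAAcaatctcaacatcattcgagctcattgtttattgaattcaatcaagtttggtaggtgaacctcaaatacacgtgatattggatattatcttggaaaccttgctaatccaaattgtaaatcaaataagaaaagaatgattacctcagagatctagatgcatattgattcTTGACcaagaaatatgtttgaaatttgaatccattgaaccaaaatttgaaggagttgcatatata
WRKY75: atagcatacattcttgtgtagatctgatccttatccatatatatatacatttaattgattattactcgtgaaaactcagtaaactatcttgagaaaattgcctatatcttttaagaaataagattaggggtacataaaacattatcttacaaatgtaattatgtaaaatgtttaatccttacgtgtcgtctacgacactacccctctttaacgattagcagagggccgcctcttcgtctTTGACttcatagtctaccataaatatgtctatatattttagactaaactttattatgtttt
WRKY53: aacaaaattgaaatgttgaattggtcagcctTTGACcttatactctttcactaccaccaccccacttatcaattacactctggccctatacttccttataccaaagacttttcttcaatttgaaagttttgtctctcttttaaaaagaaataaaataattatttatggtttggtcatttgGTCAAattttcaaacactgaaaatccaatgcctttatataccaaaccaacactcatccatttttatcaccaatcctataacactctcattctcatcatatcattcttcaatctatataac

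All 42 libraries correlated best with their own group, with correlations between group mates of 0.543 to 0.903, the lowest in replicate 3 of WT light leaves at 6 h. The transcript of the mutated gene RPN12a itself was higher in rpn12a-236 at every time, with 1.37, 1.28 and 1.19 in the mutant and -0.912, -0.741 and -0.847 in WT at 0 d, a difference of 2.11 ± 0.119 (SE, adjusted p = 1.6e-11). A transcript level does not check an allele whose change is a stop codon. Markers of mesophyll, guard cells and phloem companion cells, 10 genes in all, were present in the table, and whether they were abundant cannot be read from z-scores. In each leaf fewer cells of a type and less RNA per cell cannot be told apart.

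**Figure D1:**
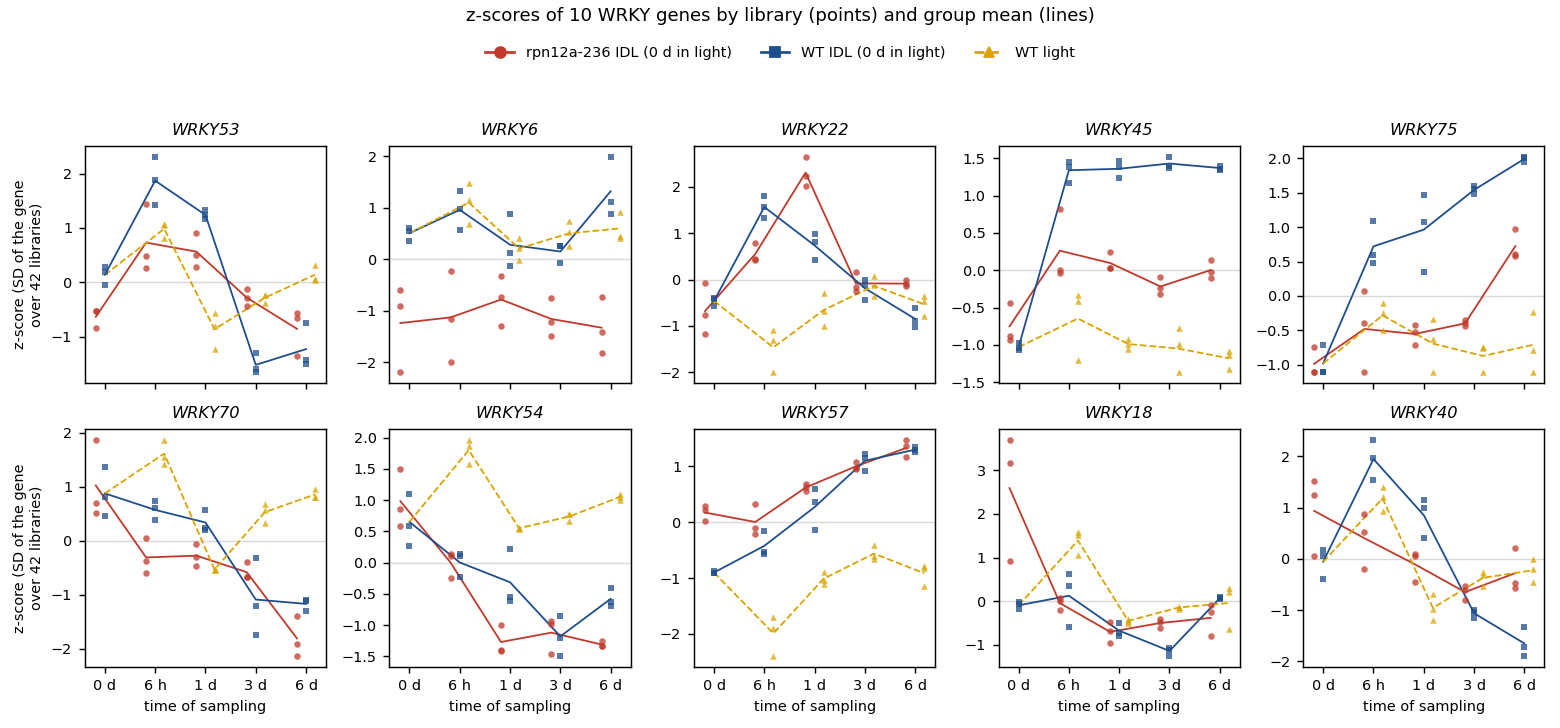
z-scores of the 10 WRKY genes (y axis, in SDs of each gene over 42 libraries) at 0 d, 6 h, 1 d, 3 d and 6 d (x axis) in rpn12a-236 IDLs, WT IDLs and WT light leaves, with points for single libraries (3 per group), lines joining group means, and 0 d groups in the light. WRKY45 in WT IDLs stayed between 1.17 and 1.52 at all 4 times, above every rpn12a-236 library, and WRKY18 reached 3.69 in an rpn12a-236 leaf at 0 d.

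WRKY45 and WRKY75, both of which promote senescence, were induced in the darkened WT leaf and less so in the darkened mutant leaf. WRKY45 is known to act with gibberellin signalling and WRKY75 with salicylic acid and hydrogen peroxide. In rpn12a-236 IDLs at 3 d WRKY45 had z-scores of -0.241, -0.0952 and -0.316, against 1.52, 1.40 and 1.37 in WT IDLs. The difference was -1.65 ± 0.186 (SE, adjusted p = 2.9e-07), and the groups did not overlap. At 0 d the mutant had -0.436, -0.886 and -0.933 and WT had -1.07, -1.04 and -0.969, a difference of 0.275 ± 0.186 that was not called (adjusted p = 0.300). The 3 mutant leaves were nevertheless all above the 3 WT leaves. In darkened leaves the mutant was lower at the other times as well, by -1.08 ± 0.186 after 6 h (adjusted p = 2.1e-04), -1.26 after 1 d (adjusted p = 1.7e-05) and -1.36 after 6 d (adjusted p = 2.3e-06). Within a genotype, WRKY45 was higher in rpn12a-236 IDLs than at 0 d by 1.01, 0.848, 0.534 and 0.753 at 6 h, 1 d, 3 d and 6 d, with the 3 d value not called (adjusted p = 0.0175). In WT it was higher by 2.36, 2.39, 2.46 and 2.39. The mutant response less that of WT (the interaction) was -1.35 ± 0.263 after 6 h (adjusted p = 0.00107) and -1.54, -1.92 and -1.64 after 1 d, 3 d and 6 d (adjusted p = 2.2e-04, 1.5e-05 and 4.6e-05). All 4 values passed when any single library was left out. In the fit on only the libraries of the groups compared, the 6 h difference and the 6 h interaction of WRKY45 were no longer called (adjusted p = 0.0549 and 0.0325).

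WRKY75 was the 1 member with a floor, a lowest value of -1.11 that 8 libraries shared and that stands for the least signal the table can show. These 8 were 2 mutant and 2 WT leaves at 0 d, 1 mutant IDL at 6 h and 1 WT light leaf at each of 1 d, 3 d and 6 d. In rpn12a-236 IDLs at 3 d it had -0.352, -0.442 and -0.399, against 1.55, 1.48 and 1.60 in WT IDLs, a difference of -1.94 ± 0.260 (adjusted p = 3.1e-06) with no overlap. At 6 d the mutant IDLs reached 0.978, 0.580 and 0.611 and the WT IDLs 2.02, 2.01 and 1.95, a difference of -1.27 ± 0.260 (adjusted p = 3.2e-04). The mutant values at 6 d lay in the range of WT IDLs at 6 h, which had 0.473, 0.596 and 1.09, a comparison that was not tested. Against its own 0 d WRKY75 rose in the mutant only at 6 d, by 1.71 ± 0.260 (adjusted p = 4.7e-06), with 0.507, 0.433 and 0.587 at 6 h, 1 d and 3 d below the threshold. WT rose at all 4 times, by 1.70, 1.94, 2.52 and 2.97. At 0 d the genotypes overlapped, with -0.734, -1.11 and -1.11 in the mutant and -0.716, -1.11 and -1.11 in WT. The interaction was called at 1 d and 3 d, at -1.51 ± 0.368 (adjusted p = 0.00464) and -1.93 ± 0.368 (adjusted p = 4.8e-04), but not at 6 h or 6 d (adjusted p = 0.0303 and 0.0106). At 6 d it was called with all 42 libraries (0.00947) or only those compared (0.00663), and without WT 0 d replicate 1 (0.00912) or rpn12a-236 IDL replicate 1 (0.00886). At 6 h it was called without rpn12a-236 IDL replicate 3 (0.00678). The 1 d interaction was lost (adjusted p = 0.0121 to 0.0192) without rpn12a-236 0 d replicate 1, rpn12a-236 IDL replicate 3, WT 0 d replicate 2 or 3, or WT IDL replicate 1 or 3. The 6 h difference of -1.20 (adjusted p = 0.00187) was lost without rpn12a-236 replicate 2 (adjusted p = 0.0229) or WT replicate 3 (0.0170).

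In WT the induction of both genes was also seen against light leaves of the same time and harvest hour. WRKY45 in WT IDLs exceeded WT light leaves by 1.99 ± 0.189 at 6 h and by 2.35, 2.48 and 2.54 at 1 d, 3 d and 6 d (adjusted p = 3.9e-08 to 3.6e-10), with values of 1.34, 1.40 and 1.36 in IDLs at 6 d and -1.13, -1.08 and -1.32 in light leaves. WRKY75 exceeded them by 1.00 ± 0.266 at 6 h (adjusted p = 0.00380) and by 1.65, 2.41 and 2.70 later, and its 6 h call was lost without WT light replicate 1 (adjusted p = 0.0199) or WT IDL replicate 3 (0.0279). The means of WRKY45 in WT IDLs were 1.34, 1.36, 1.43 and 1.37 at 6 h, 1 d, 3 d and 6 d, whereas those of WRKY75 were 0.720, 0.963, 1.54 and 1.99.

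WRKY22, which is known to promote dark-induced senescence and also acts in the flagellin response, was the member whose group mean peaked later and higher in the mutant. In rpn12a-236 IDLs at 6 h it had 0.782, 0.448 and 0.418, against 1.80, 1.32 and 1.56 in WT IDLs, a difference of -1.01 ± 0.233 (adjusted p = 0.00307). At 1 d the order was turned round, with 2.64, 2.23 and 2.02 in the mutant and 0.809, 0.978 and 0.411 in WT, a difference of 1.56 ± 0.233 (adjusted p = 2.1e-05). The groups overlapped at neither time, and the group mean peaked at 1 d in rpn12a-236 and at 6 h in WT. The rise over 0 d at 1 d was 2.98 ± 0.233 in the mutant and 1.19 in WT, and the interaction of 1.78 ± 0.330 was called (adjusted p = 4.7e-04, 0.0117 with only the libraries compared). The interaction at 6 h was -0.794 ± 0.330 and was not called (adjusted p = 0.111). At 3 d the groups overlapped (adjusted p = 0.778), and at 6 d the mutant was again higher, by 0.760 ± 0.233, just inside the threshold (adjusted p = 0.00996). The 6 h call was lost without rpn12a-236 replicate 2 or 3 or WT replicate 1 or 3 (adjusted p = 0.0114 to 0.0206), and the 6 d call was lost without any of the 3 mutant libraries or without WT replicate 1 or 3 (adjusted p = 0.0175 to 0.0461), and also with all 42 libraries (0.0119), only those compared (0.0244), no filter (0.0114) or robust moderation (0.0105). In WT at 6 h WRKY22 had 1.80, 1.32 and 1.56 in IDLs and -2.00, -1.08 and -1.31 in light leaves, a difference of 3.03 ± 0.236 (adjusted p = 3.7e-09) that was the largest of the 10 genes in that comparison.

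WRKY53, a known early promoter of senescence, was high at 6 h and 1 d in both genotypes, and afterwards fell below its 0 d level in WT. At 0 d in the light the mutant was lower than WT by -0.773 ± 0.283, which was not called (adjusted p = 0.0456), and the genotypes did not overlap. At 6 h WRKY53 had 0.268, 0.490 and 1.44 in rpn12a-236 IDLs and 1.43, 2.31 and 1.88 in WT IDLs, a difference of -1.14 ± 0.283 (adjusted p = 0.00551). These groups overlapped through mutant replicate 3, and the call was lost without rpn12a-236 replicate 1 or 2 or WT replicate 2 or 3 (adjusted p = 0.0186 to 0.0465). At 3 d the mutant had -0.121, -0.288 and -0.440, and WT had -1.30, -1.60 and -1.66, a difference of 1.24 ± 0.283 (adjusted p = 0.00126) without overlap. Against its own 0 d the gene rose at 6 h by 1.37 ± 0.283 in rpn12a-236 and by 1.74 in WT, and at 1 d by 1.20 in rpn12a-236 and by 1.10 in WT. The later differences from 0 d were 0.353 at 3 d and -0.221 at 6 d in the mutant, neither called (adjusted p = 0.310 and 0.526). In WT they were -1.66 after 3 d (adjusted p = 2.4e-05) and -1.36 after 6 d (adjusted p = 2.2e-04). The interaction at 3 d was 2.01 ± 0.400 (adjusted p = 7.3e-04), and at 6 d it was 1.14 and not called (adjusted p = 0.0319). At 6 h it was -0.371 and not called (adjusted p = 0.602). Each of these interactions includes the genotype difference at 0 d. The WT call at 1 d was lost without WT 0 d replicate 1 (adjusted p = 0.0128), and the mutant call at 6 h with only the libraries compared (0.0159).

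WRKY53 also differed between times in WT light leaves, where it was 1.06, 1.07 and 0.823 at 6 h and -0.0588, 0.182 and 0.288 at 0 d, a difference of 0.848 ± 0.224 (adjusted p = 0.00549). Against light leaves taken at the same hour the WT IDLs were higher by 0.889 ± 0.224 at 6 h and by 2.10 at 1 d, and lower by -1.24 at 3 d and -1.37 at 6 d. The first of these was lost without WT light replicate 3 (adjusted p = 0.0113) or WT IDL replicate 2 (0.0230). The light difference was lost without WT 0 d replicate 1 or 2 or WT light replicate 1 or 2 (adjusted p = 0.0145 to 0.0311). At 1 d the WT light leaves were at -1.22, -0.565 and -0.802, where they fell by 1.00 ± 0.224 relative to 0 d (adjusted p = 0.00800) at the same hour of the day. This call was lost without any of the 3 WT 0 d libraries or without WT light replicate 1 or 3 (adjusted p = 0.0142 to 0.0549).

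WRKY6, which is induced in senescence and in defence and activates the receptor kinase gene SIRK, was low in the mutant in the light and in darkness alike. At 0 d it had -0.605, -0.899 and -2.20 in rpn12a-236 and 0.613, 0.361 and 0.545 in WT, a difference of -1.74 ± 0.433 (adjusted p = 0.00405). At 6 d the IDLs had -0.742, -1.83 and -1.42 in rpn12a-236 and 0.874, 1.11 and 1.99 in WT, a difference of -2.66 ± 0.433 (adjusted p = 2.3e-05). The genotypes overlapped at none of the 5 times. The highest of the 15 mutant libraries, at -0.231, lay below the lowest of the 27 WT libraries, at -0.141. The 6 h difference of -2.09 was called (adjusted p = 0.00122), and those of -1.07 at 1 d and -1.31 at 3 d were not (adjusted p = 0.0618 and 0.0195). The 3 d difference was called with all 42 libraries (0.00873) and with only those compared (0.00576). No difference from 0 d was called in either genotype, and no interaction was called (adjusted p = 0.279 to 0.765). WRKY6 lies on chromosome 1, as RPN12a does, and whether another mutation of that chromosome entered its difference was not tested. The 0 d call was lost without rpn12a-236 replicate 3 (adjusted p = 0.0409) or any of the 3 WT libraries (0.0104 to 0.0167), and the 6 h call without rpn12a-236 replicate 2 (0.0149).

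WRKY70 and WRKY54, related repressors of senescence that act in salicylic acid signalling, fell in the darkened leaf of both genotypes. At 6 d WRKY70 had -1.40, -2.13 and -1.92 in rpn12a-236 IDLs, against 0.695, 1.86 and 0.503 in the mutant at 0 d, a difference of -2.83 ± 0.330 (adjusted p = 8.9e-08). In WT the difference was -2.05 (adjusted p = 1.0e-05). WRKY54 at 6 d had -1.25, -1.34 and -1.33 in rpn12a-236 IDLs, against 0.857, 1.50 and 0.593 at 0 d, a difference of -2.29 ± 0.260, and in WT the difference was -1.23 (adjusted p = 6.0e-08 in the mutant and 2.6e-04 in WT). In the mutant both genes were called lower at all 4 times, WRKY70 by -1.33, -1.30, -1.60 and -2.83 and WRKY54 by -0.984, -2.25, -2.11 and -2.29. In WT WRKY70 was called lower from 3 d (-1.97) and WRKY54 from 1 d (-0.965, adjusted p = 0.00318), and the WRKY70 values of -0.305 at 6 h and -0.538 at 1 d were not called. None of the 8 interactions of the pair was called, the nearest being WRKY54 at 1 d with -1.29 ± 0.368 (adjusted p = 0.0136). That value was called with all 42 libraries (0.00405) and without rpn12a-236 0 d replicate 3, WT 0 d replicate 3 or WT IDL replicate 2 (0.00608 to 0.00972). Directly between genotypes, only WRKY54 at 1 d was called, with -1.40, -0.998 and -1.41 in rpn12a-236 and -0.547, -0.614 and 0.220 in WT, a difference of -0.957 ± 0.260 (adjusted p = 0.00627). It was lost without rpn12a-236 replicate 1 or 3 or WT replicate 3 (adjusted p = 0.0270 to 0.0606). The mutant calls at 6 h, and that of WRKY70 at 1 d, were lost without rpn12a-236 0 d replicate 2 or IDL replicate 2 (adjusted p = 0.0104 to 0.0358). The WT call of WRKY54 at 1 d was lost without WT 0 d replicate 3 or IDL replicate 1 or 2 (0.0203 to 0.0314).

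In the light, WRKY54 and WRKY70 also differed between WT leaves of different times. WRKY54 was 1.86, 1.58 and 1.96 in WT light leaves at 6 h and 0.272, 0.585 and 1.10 at 0 d, a difference of 1.15 ± 0.223 (adjusted p = 4.0e-04). Set against those light leaves, WT IDLs at 6 h were lower by -1.80 ± 0.223 for WRKY54 (adjusted p = 1.2e-06) and by -1.04 ± 0.264 for WRKY70 (adjusted p = 0.00271). The comparison with 0 d called neither gene at 6 h. The WRKY70 call was lost without WT light replicate 1 or WT IDL replicate 1 (adjusted p = 0.0163 and 0.0153). At 3 d and 6 d both genes were lower in IDLs than in light leaves, WRKY70 by -1.62 and -2.03 and WRKY54 by -1.92 and -1.63. At 1 d they parted, as WRKY54 was lower in IDLs by -0.864 (adjusted p = 0.00269) and WRKY70 higher by 0.872 (adjusted p = 0.00876). The light leaves themselves had WRKY70 at -0.539, -0.528 and -0.540, lower than at 0 d by -1.41 ± 0.264 (adjusted p = 0.00199). Leaving out any 1 of the 6 libraries ended the WRKY70 call at 1 d (adjusted p = 0.0143 to 0.0438). Leaving out WT IDL replicate 1 or 2 ended that of WRKY54 (0.0185 and 0.0194), and leaving out WT 0 d replicate 3 or WT light replicate 3 ended the light difference (0.0160 and 0.0104).

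WRKY57, which represses jasmonate-induced senescence, was higher in the mutant before darkening, and in IDLs no genotype difference was called. At 0 d it had 0.219, 0.290 and 0.0133 in rpn12a-236 and -0.916, -0.868 and -0.917 in WT, a difference of 1.07 ± 0.178 (adjusted p = 8.9e-05) without overlap. At 6 d both were high, at 1.37, 1.16 and 1.47 in rpn12a-236 IDLs and 1.34, 1.30 and 1.25 in WT IDLs, and differed by 0.0349 ± 0.178 (adjusted p = 0.929). The rise over 0 d was therefore smaller in the mutant, 0.827 at 3 d and 1.16 at 6 d, against 2.00 and 2.20 in WT. The interactions of -1.17 ± 0.252 and -1.04 ± 0.252 were called (adjusted p = 0.00146 and 0.00276). In the IDLs of both times the genotypes overlapped. In WT light leaves at 6 h it was -1.90, -1.69 and -2.39, lower than at 0 d by -1.09 ± 0.195 (adjusted p = 1.7e-04). WT IDLs exceeded light leaves at all 4 times, by 1.57, 1.28, 1.66 and 2.21.

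WRKY18 was higher in the mutant at 0 d in the light, and no genotype difference was called in IDLs. At 0 d it had 0.930, 3.16 and 3.69 in rpn12a-236 and -0.0722, -0.0277 and -0.185 in WT, a difference of 2.69 ± 0.419 (adjusted p = 4.2e-05). The 3 mutant leaves were all above WT but far from one another. The difference ran from 2.14 to 3.52 when single libraries were left out, and with only the 6 libraries compared it was not called (adjusted p = 0.0358). In IDLs the genotypes differed by -0.168, -0.0271, 0.643 and -0.450 at 6 h, 1 d, 3 d and 6 d, none of them called (adjusted p = 0.839, 1.00, 0.248 and 0.417). The genotypes overlapped at 6 h and 1 d, but not at 3 d or 6 d. At 3 d WRKY18 had -0.468, -0.411 and -0.618 in rpn12a-236 IDLs and -1.25, -1.07 and -1.11 in WT IDLs. With only the libraries compared, neither the 3 d nor the 6 d difference was called (adjusted p = 0.0170 at 3 d). All groups share 1 estimate of the spread, and in rpn12a-236 the SD was 1.47 at 0 d and 0.107 at 3 d. In the mutant all 4 dark times were lower than 0 d, by -2.64, -3.30, -3.09 and -2.98 (adjusted p = 1.6e-05 to 4.8e-07). No WT difference from 0 d was called, the largest being -1.05 at 3 d (adjusted p = 0.0374, and 0.00103 with only the libraries compared). The interaction was called at 6 h, 1 d and 6 d, at -2.86 ± 0.593, -2.72 and -3.14 (adjusted p = 0.00192, 0.00196 and 2.7e-04). At 3 d the value of -2.05 was just outside (adjusted p = 0.0133, 7.2e-06 without rpn12a-236 0 d replicate 1). All of these values share the 3 mutant leaf pools of 0 d, and with only the libraries compared none of the 3 interactions was called (adjusted p = 0.0482, 0.0311 and 0.0129).

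Its paralogue WRKY40 did not follow it closely. At 0 d WRKY40 had 0.0507, 1.52 and 1.25 in rpn12a-236 and 0.0503, -0.383 and 0.169 in WT, groups that overlapped through mutant replicate 1, which was also the lowest for WRKY18. The difference of 0.994 ± 0.331 was not called (adjusted p = 0.0277), and was called without that library (0.00181). At 6 h the IDLs had 0.531, -0.198 and 0.882 in rpn12a-236 and 1.55, 2.32 and 1.98 in WT, a difference of -1.54 ± 0.331 (adjusted p = 0.00166). It was lost without rpn12a-236 replicate 2 or WT replicate 2 (adjusted p = 0.0187 and 0.0125). At 6 d the order was the opposite, at 0.211, -0.470 and -0.568 in rpn12a-236 and -1.89, -1.72 and -1.33 in WT, a difference of 1.37 ± 0.331 (adjusted p = 0.00151), lost without rpn12a-236 replicate 1 (0.0141). Against 0 d the mutant had -0.534 at 6 h, which was not called (adjusted p = 0.208), and was lower at 3 d and 6 d, by -1.59 and -1.21. WT was higher than 0 d at 6 h, by 2.01, and lower at 6 d, by -1.59. The 6 d call in the mutant was lost without rpn12a-236 0 d replicate 2 or 3 or IDL replicate 2 or 3 (adjusted p = 0.0134 to 0.0293). The interaction was -2.54 ± 0.468 at 6 h (adjusted p = 6.5e-04) and -1.95 at 1 d (adjusted p = 0.00413). The 1 d value lost its call without rpn12a-236 0 d replicate 2 or 3, rpn12a-236 IDL replicate 2, WT 0 d replicate 2 or WT IDL replicate 2 or 3 (adjusted p = 0.0118 to 0.0154).

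Both paralogues were higher at hour 14 than at 0 d in WT light leaves. WRKY18 was 1.58, 1.52 and 1.05 at 6 h and -0.0722, -0.0277 and -0.185 at 0 d, a difference of 1.48 ± 0.250 (adjusted p = 9.0e-05). WRKY40 was 1.21, 1.40 and 0.934 at 6 h and 0.0503, -0.383 and 0.169 at 0 d, a difference of 1.24 ± 0.233 (adjusted p = 2.9e-04). In WT IDLs of that hour they parted, with WRKY18 lower than in light leaves by -1.26 ± 0.250 (adjusted p = 2.8e-04) and WRKY40 higher by 0.769 ± 0.233 (adjusted p = 0.00949). The WRKY40 call was lost without WT IDL replicate 2 or 3 or WT light replicate 1 or 3 (adjusted p = 0.0210 to 0.0627), with all 42 libraries (0.0357) and with no filter (0.0109). At 1 d WRKY40 was higher in IDLs by 1.81 ± 0.233 (adjusted p = 1.2e-06), and at 6 d it was lower by -1.43 (adjusted p = 1.9e-05), with -1.89, -1.72 and -1.33 in IDLs and -0.204, 0.00164 and -0.457 in light leaves. WRKY18 was lower in IDLs at 3 d, by -0.998 ± 0.250 (adjusted p = 0.00181), a call lost with all 42 libraries (0.0279).

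Counted over the 10 genes, the mutant differed from WT by 2 genes higher and 1 lower at 0 d, 0 and 6 at 6 h, 1 and 3 at 1 d, 1 and 2 at 3 d, and 2 and 3 at 6 d. Of all 24407 genes tested, 17.2%, 11.4%, 22.5%, 27.6% and 35.1% were called in either direction at these times. By direction, the shares called higher were 7.93%, 4.73%, 11.0%, 13.4% and 17.2%, and those called lower were 9.26%, 6.66%, 11.4%, 14.2% and 17.9%. The median difference of the 10 at 6 h was -1.04, against -0.00376 over all genes, and at 3 d, where 3 of 10 were called, it was 0.0818 against 0. The 6 h share of 6 in 10 was thus the farthest from the background, and the 3 d share was near it. The 6 genes lower at 6 h were WRKY53, WRKY6, WRKY22, WRKY45, WRKY75 and WRKY40. In the fit on only the 6 libraries compared none of these was called at that time (adjusted p = 0.0321 to 0.0936). Of the 21 genotype calls, 9 were kept in such fits, namely WRKY57 at 0 d, WRKY22 and WRKY45 at 1 d, WRKY53, WRKY45 and WRKY75 at 3 d, and WRKY6, WRKY45 and WRKY75 at 6 d.

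**Figure D2:**
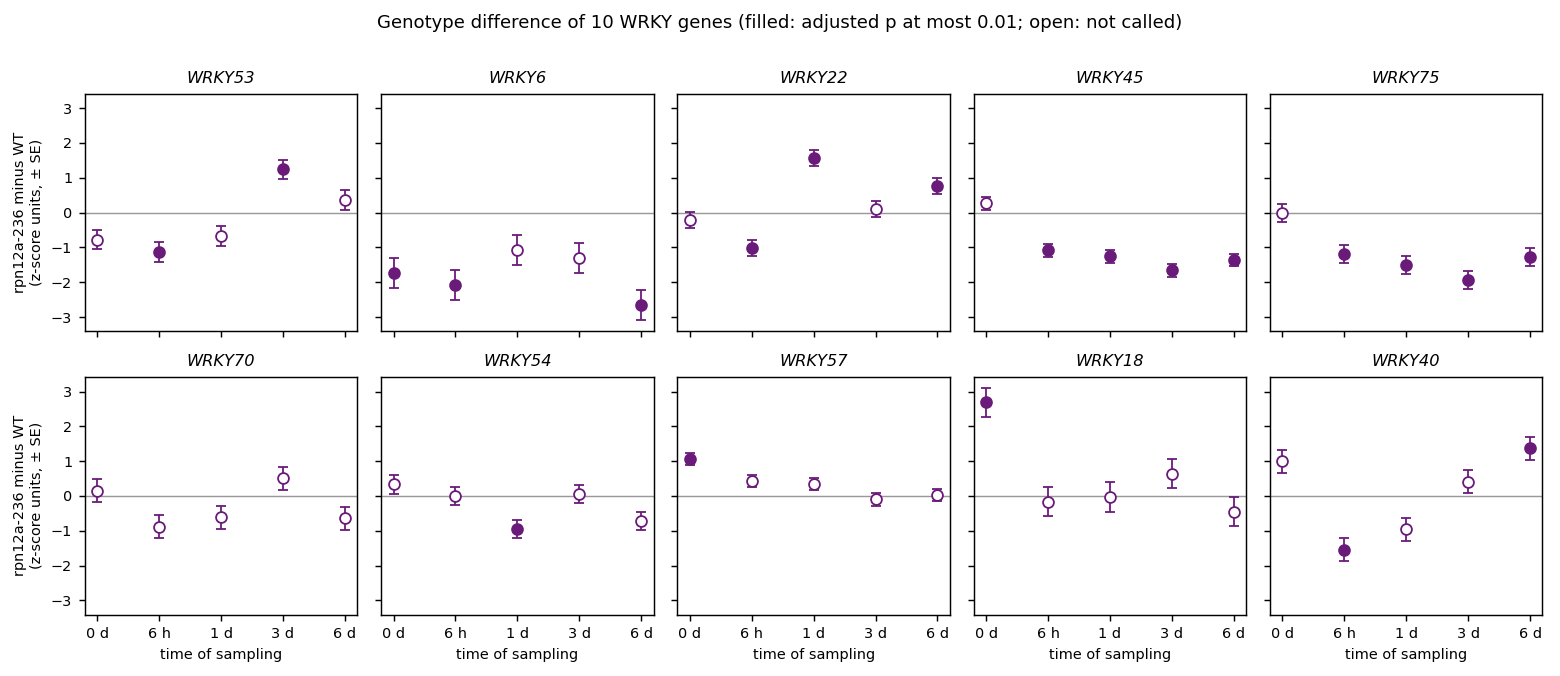
Difference of each WRKY gene between rpn12a-236 and WT (y axis, rpn12a-236 minus WT in z-score units, bars ± SE of the fit with 3 libraries per group) at 0 d in the light and at 6 h, 1 d, 3 d and 6 d as IDLs (x axis), with points filled where the adjusted p was at most 0.01. WRKY45 and WRKY75 lay below 0 at all 4 dark times, WRKY22 crossed it between 6 h (-1.01) and 1 d (1.56), and WRKY18 was far above it at 0 d alone (2.69).

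Against 0 d the 10 genes were called in both directions in each genotype, except in WT at 6 h, where 0 were lower. Against 0 d the mutant had 3 higher and 3 lower at 6 h and at 1 d, 1 and 4 at 3 d, and 3 and 4 at 6 d, where 34.9%, 43.0%, 46.7% and 50.7% of all genes were called. By direction, 16.5%, 20.2%, 22.0% and 24% were higher and 18.4%, 22.8%, 24.7% and 26.7% lower. WT had 5 higher and 0 lower at 6 h, 5 and 1 at 1 d, 3 and 3 at 3 d, and 3 and 4 at 6 d, with 39.1%, 41.7%, 46.8% and 50.0% of all genes called. By direction, 18.7%, 19.7%, 22.2% and 23.8% were higher and 20.4%, 22.0%, 24.6% and 26.2% lower. In either genotype 5 to 7 of the 10 were thus called at each time, which for 10 genes is not far from the share of any gene. The mutant and WT responses were each set against their own 0 d leaves, and the 6 h values carry the change of hour from 8 to 14, which cannot be told apart from darkening in rpn12a-236. At 1 d, 3 d and 6 d darkening and the time passed since 0 d cannot be told apart in rpn12a-236 either, as it had no later light leaves. The interactions carry the same limit. Interactions numbered 3, 5, 4 and 3 of 10 at 6 h, 1 d, 3 d and 6 d, against 7.48%, 12.7%, 15.1% and 21.4% of all genes. All but those of WRKY22 at 1 d and WRKY53 at 3 d were negative, where 4.63%, 6.44%, 7.35% and 10.6% of all genes were called negative and 2.84%, 6.29%, 7.77% and 10.8% positive. In WT IDLs against WT light leaves of the same hour, 6 genes were higher and 3 lower at 6 h, 7 and 1 at 1 d, and 3 and 4 at both 3 d and 6 d, against 36.5%, 40.9%, 45.5% and 47.2% of the 24166 genes tested there. By direction, 18.1%, 18.7%, 20.8% and 22.1% of all genes were higher and 18.4%, 22.3%, 24.7% and 25.0% lower. At 6 h WRKY6 alone was not called in that comparison. With only the libraries compared, 12 of the 24 mutant calls against 0 d were kept. Those lost were WRKY53, WRKY22, WRKY45, WRKY70, WRKY54 and WRKY18 at 6 h, WRKY45 and WRKY70 at 1 d, WRKY40 at 3 d, and WRKY45, WRKY18 and WRKY40 at 6 d (adjusted p = 0.0103 to 0.0512). Of the 24 WT calls 23 were kept, with WRKY54 at 1 d lost (0.0404), and of the 15 interactions 7 were kept, those of WRKY45 at 1 d, 3 d and 6 d, WRKY53 and WRKY75 at 3 d, and WRKY57 at 3 d and 6 d. Of the 31 calls of WT IDLs against light leaves 24 were kept, and WRKY53, WRKY70, WRKY75, WRKY57, WRKY18 and WRKY40 at 6 h and WRKY54 at 1 d were lost (adjusted p = 0.0122 to 0.0984).

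**Figure D3:**
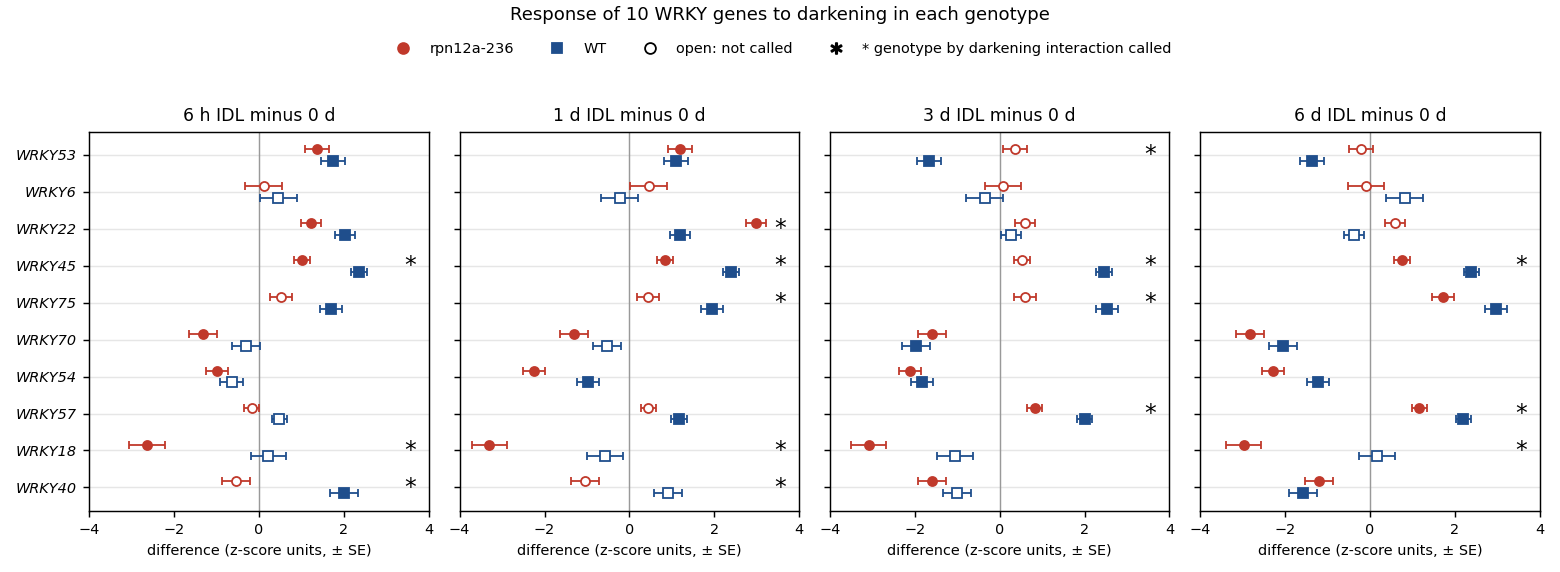
Change of each WRKY gene from 0 d (x axis, IDL minus 0 d of the same genotype in z-score units, bars ± SE of the fit with 3 libraries per group) after 6 h, 1 d, 3 d and 6 d in rpn12a-236 (circles, upper) and WT (squares, lower), with open symbols where not called and a star at a called interaction of genotype and darkening. The circles of WRKY45 lay between 0.534 and 1.01 and its squares between 2.36 and 2.46, while for WRKY70 and WRKY54 both symbols lay left of 0 at each time and no star was set.

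WT light leaves differed from 0 d in 6 of 10 genes at 6 h, with WRKY53, WRKY54, WRKY18 and WRKY40 higher and WRKY22 and WRKY57 lower, against 23.7% of all genes called (10.3% higher and 13.4% lower). Of these, the call of WRKY22 was lost without WT 0 d replicate 2 (adjusted p = 0.0104) or WT light replicate 1 (0.0197). At 1 d WRKY53 and WRKY70 were called lower, where 3.23% of all genes were called, 1.23% higher and 1.99% lower. At 3 d and 6 d limma called 0 of 10, where 1.08% (0.526% higher, 0.550% lower) and 1.27% (0.414% higher, 0.857% lower) of all genes were called, with 0 of 10 at an unadjusted p under 0.05 at both times. In fits on only the 6 libraries compared, 0 of 10 was called at any of the 4 times, with 7, 4, 1 and 0 genes at an unadjusted p under 0.05 at 6 h, 1 d, 3 d and 6 d. Over the same days WRKY45, WRKY75 and WRKY57 rose and WRKY70 and WRKY54 fell in darkened WT leaves.

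Across the 14 group means the 10 genes fell into pairs and opposites, given here as a description, since all means come from the same 42 libraries. WRKY45 and WRKY75 were the most alike, with a Pearson correlation of 0.884, followed by WRKY70 and WRKY54 with 0.840 and WRKY53 and WRKY40 with 0.831. The paralogues WRKY18 and WRKY40 reached 0.486. WRKY57 was the opposite of WRKY54 and WRKY70, at -0.892 and -0.807. Searched over the 17536 genes without a floor, the gene most like WRKY45 was the cyclic nucleotide-gated channel gene CNGC13 (0.965). That most like WRKY18 was CYP94C1 (0.932), which encodes an enzyme of jasmonate turnover, and that most like WRKY6 was the transporter gene UPS2 (0.944). NHL3 (0.920) was second for WRKY53 and NDR1 (0.930) second for WRKY70, both of them genes of defence. PLDGAMMA2 (0.925), a phospholipase D gene, came first for WRKY22. AT5G49665 (0.973), AT1G55210 (0.973), AT2G26690 (0.971) and AT5G27830 (0.906) came first for WRKY75, WRKY54, WRKY57 and WRKY40.

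**Figure D4:**
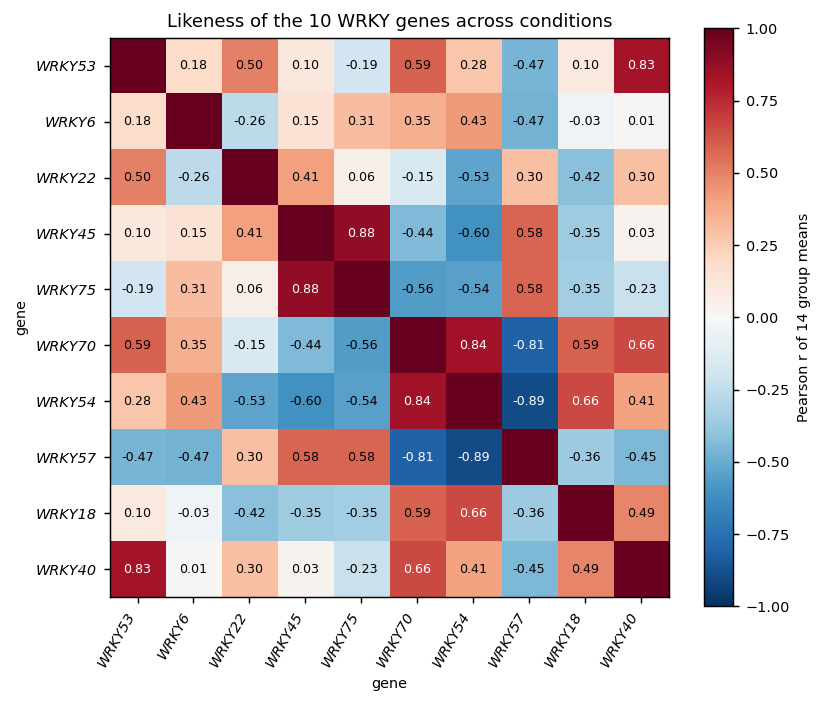
Pearson correlation of the 14 group means for each pair of the 10 WRKY genes (both axes list the genes, and colour and printed values give the correlation). The highest values join WRKY45 with WRKY75 (0.884), WRKY70 with WRKY54 (0.840) and WRKY53 with WRKY40 (0.831), and the lowest joins WRKY54 with WRKY57 (-0.892).

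The rest of the family was read from 62 other genes annotated as WRKY, of which 57 were in the table and 53 could be tested. Between rpn12a-236 and WT, 6 were higher and 2 lower at 0 d, 0 and 5 at 6 h, 4 and 5 at 1 d, 4 and 8 at 3 d, and 2 and 14 at 6 d. The genes of the smallest adjusted p included WRKY25, a heat and salt response gene, higher in the mutant at 0 d by 2.25 ± 0.141 (adjusted p = 5.3e-11). They also included WRKY33, a key gene of resistance to necrotrophic fungi, lower at 6 h by -2.62 ± 0.451 (adjusted p = 2.0e-04). WRKY2 and WRKY58 were lower at 3 d, by -2.33 ± 0.258 and -2.09 ± 0.225, and at 6 d, by -3.31 and -2.63. Of all genes, 17.2%, 11.4%, 22.5%, 27.6% and 35.1% were called in either direction at these times. Taken without regard to direction, the 8, 5, 9, 12 and 16 of 53 were thus near or below the share of any gene. By direction, 7.93%, 4.73%, 11.0%, 13.4% and 17.2% of all genes were higher and 9.26%, 6.66%, 11.4%, 14.2% and 17.9% lower. At 6 d the 14 of 53 lower were above the share of all genes, and the 2 higher were below it.

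Genes that act with these factors were counted in the same way. Of 11 genes of salicylic acid synthesis and response, 0 were higher and 2 lower in rpn12a-236 at 0 d, 0 and 9 at 6 h, 0 and 4 at 1 d, 0 and 5 at 3 d, and 1 and 7 at 6 d. The shares of all genes called lower were 9.26%, 6.66%, 11.4%, 14.2% and 17.9% at these times, and the median of the 11 at 6 h was -1.48, against -0.00376 over all genes. CBP60g, an activator of salicylic acid synthesis, was lower by -2.61 ± 0.211 at 6 h (adjusted p = 4.1e-09), with group means of -0.830 in rpn12a-236 and 1.78 in WT. ICS1, which makes the precursor and is a target of WRKY75, was lower by -1.24 ± 0.227 (adjusted p = 3.7e-04). These are transcripts, and the paper, which measured salicylic acid itself in such leaves, reports no significant change of it in the mutant. Of 9 genes reported as targets of the 10 factors, SAG12 was lower at 3 d by -1.99 ± 0.172 (adjusted p = 5.9e-09), with means of -0.121 in the mutant and 1.87 in WT. CAT2, the catalase gene that WRKY75 represses, was higher at 3 d by 0.699 ± 0.135 (adjusted p = 2.4e-04), with means of -0.515 in the mutant and -1.21 in WT. SEN4, also reported as a WRKY target, was higher in the mutant at 0 d and 1 d, by 1.59 ± 0.234 and 1.92. In all, 1 target was higher and 2 were lower at 0 d, 0 and 3 at 6 h, 2 and 1 at 1 d, 1 and 3 at 3 d, and 2 and 3 at 6 d, where 17.2%, 11.4%, 22.5%, 27.6% and 35.1% of all genes were called in either direction.

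Among 11 senescence markers, some of them also in the list of targets, 1 was higher and 8 were lower in rpn12a-236 at 3 d and 1 and 7 at 6 d, and 1 and 4, 0 and 3, and 2 and 4 at 0 d, 6 h and 1 d. Of all genes 14.2% were lower at 3 d, 17.9% at 6 d, and 9.26%, 6.66% and 11.4% at 0 d, 6 h and 1 d. NAP and NYE1, a senescence NAC factor and the gene that opens chlorophyll breakdown, were lower at 3 d by -1.50 ± 0.161 and -1.86 ± 0.226. Of 7 known regulators of WRKY53, MEKK1, whose kinase binds its promoter, was higher in the mutant at 0 d by 1.34 ± 0.271 (adjusted p = 6.9e-04) and lower at 6 h by -1.05 ± 0.271 (adjusted p = 0.00720). ESP, whose product antagonizes WRKY53, was higher at 1 d, 3 d and 6 d, by 0.652 ± 0.178, 0.840 and 0.796, and REV, an activator of WRKY53, was lower at 0 d and 6 d, by -1.10 ± 0.279 and -1.18. At 3 d, when WRKY53 itself was higher in the mutant, 1 of the 7 was higher and 0 were lower, where 27.6% of all genes were called.

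Genes of the rapid touch and wound response and markers of cell types were counted beside these results. Of 9 genes of the rapid touch and wound response, 2 were higher in rpn12a-236 at 0 d, JAZ1 by 2.85 ± 0.207 and JAZ10 by 3.20 ± 0.354, beside the high WRKY18 of the same leaves. At 6 h 0 of the 9 were higher and 6 were lower, with a median of -1.46, beside the 6 lower WRKY genes, and in WT light leaves at 6 h 7 of the 9 were higher than at 0 d and 0 lower. Of all genes, 7.93% were higher in the mutant at 0 d and 6.66% lower at 6 h, and 10.3% were higher in WT light leaves at 6 h. The part of the touch and wound genes in the WRKY results was not tested. Of 4 guard cell markers, 1, 2, 2, 2 and 0 were higher and 0, 0, 0, 1 and 1 lower in the mutant at 0 d, 6 h, 1 d, 3 d and 6 d. Of 3 mesophyll markers 0, 0, 2, 2 and 2 were higher and 0 lower. Of 3 phloem companion cell markers 0, 1, 1, 2 and 1 were higher and 1 was lower, at 6 d. The shares of all genes called higher in the mutant at the 5 times were 7.93%, 4.73%, 11.0%, 13.4% and 17.2%. Those called lower were 9.26%, 6.66%, 11.4%, 14.2% and 17.9%. In darkened leaves all 3 mesophyll markers were lower than at 0 d at each of the 4 times in both genotypes, with medians at 6 d of -2.10 in rpn12a-236 and -3.04 in WT, beside the rises and falls of the 10 genes. They were also lower in WT IDLs than in WT light leaves, with a median of -2.85 at 6 d. Over the 4 times, 18.4% to 26.7% of all genes were lower than at 0 d in rpn12a-236 and 20.4% to 26.2% in WT. In WT IDLs against light leaves 18.4% to 25.0% were lower. Of the phloem markers 2 of 3 were higher than at 0 d after 6 d in each genotype. In rpn12a-236 1 of 3 was lower, and in WT 0 were lower. The medians were 2.16 in rpn12a-236 and 1.72 in WT. Of all genes, 24% were higher than at 0 d after 6 d in rpn12a-236 and 23.8% in WT. Whether a shift in cell types entered the differences of the 10 genes was not tested.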

How the data were processed

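Leaf RNA was sequenced in 42 libraries. The authors removed rRNA reads, trimmed with Trimmomatic, quantified TAIR10 cDNA with kallisto 0.43.0 in a strand-specific way, summed transcripts to genes, and applied the blind variance stabilizing transformation of DESeq2; per the submitters' processing notes FastQC 0.11.4 and DESeq2 1.14.1 were used. The deposited unit is a score: the authors scaled each gene to a z-score over the 42 libraries. This removes levels, fold changes and depth, so that precision rests on the spread of 3 libraries, and a difference in z-scores depends on how much a gene varied in the whole experiment.

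Group means were fitted with limma 3.58.1 in R 4.3.3 on the 30 libraries of the time course (genotype, darkening and their interaction, after the study's model) or on the 27 WT libraries (IDL against light, and later light against 0 d). A lowest value shared by at least 2 libraries was taken as a floor (9514 genes, 17536 without), and genes with 3 or more libraries above it entered the test. Benjamini-Hochberg adjustment ran over every tested gene (24407 or 24166), with calls made at an adjusted p of at most 0.01. The SE is that of the fit, and all groups share 1 estimate of the spread per gene. Contrasts against 0 d share those 3 libraries.

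The 10 genes, the lists and the tests were chosen with earlier results of these data known. Of each list the text names at most the 3 genes of smallest adjusted p in a contrast, and for each of the 10 genes up to 2 most like it by the correlation of group means. All columns of the table were assigned, with 0 left over; mutant columns carry a line code that the study's supplementary code ties to rpn12a. In simulated z-scores of the 30-library contrast at 3 d (200 of 17536 genes changed), shifts of 2, 4, 8 and 16 within-group SDs, 50 genes each, were recovered in 2, 24, 50 and 50 genes with 4 false calls, against 0, 3, 38 and 50 with 6 libraries. Alternatives were thresholds of 0.001 and 0.05, all 42 libraries, only the libraries compared, no filter, no or robust moderation of variances, a replicate block, and leaving out each library. Python 3.11.15 with pandas 2.3.3 and Biopython 1.88 read the start windows from RefSeq's TAIR10.1, whose coordinates the quantification on TAIR10 cDNA did not use, and matplotlib 3.10.9 drew the plots. All 10 genes had a window; no protein sequence was used here.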

Additional observations from a re-analysis of the deposited data

Results flagged for a closer look

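The 15 results below were picked out because the response to darkening differed between rpn12a-236 and WT by the interaction test, given as the mutant response minus the WT response in z-score units. Groups of 3 libraries were not screened gene by gene for single libraries that stand apart, though each library was left out in turn.

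At 6 h the differences were -1.35 for WRKY45, -2.86 for WRKY18 and -2.54 for WRKY40. At 1 d they were 1.78 for WRKY22, -1.54 for WRKY45, -1.51 for WRKY75, -2.72 for WRKY18 and -1.95 for WRKY40. At 3 d they were 2.01 for WRKY53, -1.92 for WRKY45, -1.93 for WRKY75 and -1.17 for WRKY57. At 6 d they were -1.64 for WRKY45, -1.04 for WRKY57 and -3.14 for WRKY18.

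The values of WRKY18 and WRKY57 share a start at 0 d that was higher in the mutant, by 2.69 and 1.07. That of WRKY53 has a start at 0 d that was lower in the mutant, by -0.773, which was not called (adjusted p = 0.0456 by limma). WRKY45 and WRKY75 differed at 0 d by 0.275 and -0.00593, neither called, and differed more in IDLs. For WRKY75, 2 of the 3 libraries of each genotype at 0 d were at the floor, which limits any difference that could be seen there. The 1 d values of WRKY75 and WRKY40 lost their call when single libraries were left out, 6 libraries for each (adjusted p = 0.0121 to 0.0192 and 0.0118 to 0.0154 by limma).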

How the results depend on the processing

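No call turned its direction under the alternatives that were run. Values that were not called did change sign when single libraries were left out, such as the genotype difference of WRKY70 at 0 d (0.146, with a range of -0.275 to 0.405). Of the 123 calls among 250 values of a gene in a contrast, 35 were lost at a threshold of 0.001 and 28 gained at 0.05. Fits on only the libraries compared lost 48 and gained 5, all 42 libraries lost 6 and gained 6, no filter lost 3, robust moderation lost 1, no moderation gained 1, and leaving out single libraries lost 27 and gained 12 under at least 1 of them.

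Counts of calls over the 10 genes moved by more than 1.5 times as follows. The 21 calls between rpn12a-236 and WT became 11 at 0.001 and 10 with only the libraries compared, the 24 mutant calls against 0 d became 12 with only those libraries, and the 15 interactions became 8 at 0.001, 23 at 0.05 and 8 with only those libraries. The 8 calls of later WT light leaves against 0 d became 4 at 0.001 and 0 with only those libraries. In the simulation the fit on 6 libraries recovered fewer genes, but 200 of 17536 genes were changed there and every group had the same spread. In the data 27.6% of all genes were called between genotypes at 3 d, so the simulation does not give the power of these fits. The fits on only the libraries compared also rest on the spread of those groups alone. For WRKY18 at 0 d the SD was 1.47 in rpn12a-236 and 0.0813 in WT. What led to each lost call was not tested. Without single libraries the counts ran from 15 to 22 between genotypes, 20 to 26 and 23 to 27 for darkening in rpn12a-236 and WT, 13 to 17 for the interaction, 28 to 30 for WT IDLs against light leaves and 5 to 9 for light leaves, the 5 without WT 0 d replicate 2.

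Same-numbered replicates deviated together with correlations of -0.152 to 0.237, in 0 of 21 contrasts with all 3 pairs above 0.1. In 23 of 63 cases a library correlated best with its own number. Between rpn12a-236 and WT at 6 h all 3 did so (0.237, 0.0283 and 0.113). The numbers were not taken as pairs in the main fit, and whether same-numbered libraries shared their handling was not tested. With a replicate block the counts were 20, 24, 24, 16, 30 and 8 in the order genotype, darkening in rpn12a-236, darkening in WT, interaction, WT IDL against light, and light, with the calls of WRKY22 between genotypes at 6 d (adjusted p = 0.0112) and of WRKY70 in WT IDLs against light at 1 d (0.0134) lost and the interaction of WRKY75 at 6 d (0.00680) gained.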
